A study of Trichoderma reesei with 4 samples.

Results

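Genes of protein folding in the endoplasmic reticulum and of the unfolded protein response were followed in Trichoderma reesei, a filamentous ascomycete, while its mycelium began to form conidia (asexual spores). They are 4 of the 9126 features of the array and were taken by identifier: pdi1 (TRIRE2_122415), bip1 (TRIRE2_122920), calnexin (TRIRE2_73678) and hac1 (TRIRE2_46902). The RefSeq gene table of T. reesei QM6a (assembly v2.0) carries the symbols pdi1 and bip1 for the first pair. It has no symbol for TRIRE2_73678 and TRIRE2_46902, so the names calnexin and hac1 rest on the identifiers used to choose them and could not be checked against sequence here. All 4 were measured at every time.

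The groups were mycelium, the control (0 h), and cultures 3, 6 and 9 h into sporulation, each with 2 biological replicas. All of them were strain QM9414, labelled a low cellulase producing mutant, grown on malt extract agar, and no other strain was sampled. The fungus lay on cellophane and was scraped off whole, so each RNA pool holds hyphae and whatever conidiating structures had formed. Total RNA labelled with Cy3 was hybridised to a 1-colour NimbleGen array. No culture kept from sporulating was sampled at 3, 6 or 9 h, so sporulation and time on the plate cannot be told apart in any comparison.

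Proteins that enter the secretory pathway fold in the lumen of the endoplasmic reticulum, where chaperones bind unfolded chains and oxidoreductases form disulfide bonds. When unfolded chains accumulate, the membrane sensor Ire1 removes an unconventional intron from the mRNA of the transcription factor Hac1, which then raises the expression of chaperone and foldase genes. This circuit, the unfolded protein response, was worked out in yeast and is known in T. reesei, a fungus used for its large output of secreted enzymes. An expression array reads the amount of a transcript and not its splicing, so the values for hac1 are of the total signal of its probes.

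The deposited values are log2 RMA expression, where 1 unit is a factor of 2. They are given as the mean and SD of the 2 replicas, from which the 2 replicate values follow, although not which array each came from. The median level over all features lay between 11.53 and 11.56 at the 4 times and the median SD between 0.0821 and 0.0992. The marker of conidiation followed by the submitters, the D-mannitol dehydrogenase gene lxr1, was 2.58-fold above mycelium at 3 h, and its replicate values at 3, 6 and 9 h all lay above those of 0 h. The hydrophobin genes hfb2 and hfb3 were 8.56-fold and 22.9-fold higher at 3 h.

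Across the 4 times, the foldase and chaperone genes pdi1, bip1 and calnexin had their highest mean at 3 h and their lowest at 6 h. The mean at 9 h lay above that of 0 h for pdi1 and below it for bip1 and calnexin. By limma's moderated test, 6 h against 0 h missed the threshold for each (adjusted p = 0.108, 0.0924 and 0.0508). The step from 6 h to 9 h passed for pdi1 (adjusted p = 0.0485) and not for bip1 or calnexin (adjusted p = 0.619 and 0.255). The transcription factor gene hac1 did not share this high and low. Its means differed by 0.14 log2 units in all, the 4.79th percentile of such ranges over all features, where the median range was 0.55. The range of pdi1 was 1.05 (80.7th percentile). Those of bip1 (0.63, 57.45th percentile) and calnexin (0.58, 52.47th percentile) were near the middle of all features. By limma's F test on all comparisons with mycelium, pdi1 (adjusted p = 3.98e-04), bip1 (adjusted p = 0.00741) and calnexin (adjusted p = 0.00664) differed among the times, and hac1 missed the threshold (adjusted p = 0.683). That is 3 of 4 genes, where 57.3% of all features passed the same test. The p-values in the authors' deposited table were 0.00723 for pdi1, 0.0376 for bip1, 0.0155 for calnexin and 0.728 for hac1, where 39.0% of features were under 0.05. For 98.78% of features they lay within 1% of Benjamini-Hochberg adjusted p-values of a one-way analysis of variance, so they were read as adjusted.

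**Figure D1:**
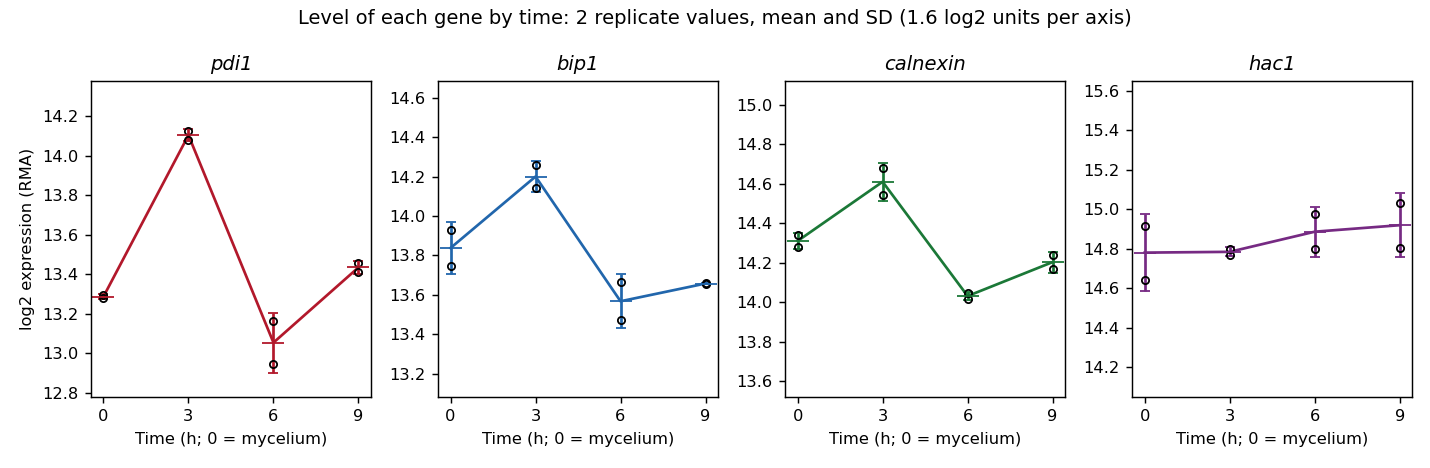
Level of pdi1, bip1, calnexin and hac1 (log2 RMA expression, vertical axis, each spanning the same number of units) against time in hours, with 0 h the mycelium. Open circles are the 2 replicate values, bars the mean ± SD. The means of the first 3 genes are highest at 3 h and lowest at 6 h, and the replicate values of hac1 at 0 h span those at 3 h.

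The gene pdi1 encodes protein disulfide isomerase, which forms and rearranges disulfide bonds in secretory proteins. Its replicate values were 13.28 and 13.30 in mycelium, 14.08 and 14.13 after 3 h, 12.95 and 13.16 after 6 h, and 13.41 and 13.46 after 9 h. No replicate of any time overlapped those of another, and the widest gap between replicates was at 6 h. Such separation of 2 values from 2 is not a test. By limma's moderated test, 6 h and 9 h missed the threshold against 0 h (adjusted p = 0.108 and 0.278). Here and for the genes below, the share of all features that separate in this way was not counted. The mean level was 13.29 ± 0.012 in mycelium, 14.11 ± 0.031 after 3 h, 13.05 ± 0.15 after 6 h, and 13.43 ± 0.032 after 9 h (SD, n = 2 each).

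For bip1, the gene of the Hsp70 chaperone of the endoplasmic reticulum lumen, the replicate values were 13.75 and 13.93 in mycelium, 14.14 and 14.26 after 3 h, 13.47 and 13.66 after 6 h, and 13.66 and 13.66 after 9 h. Both values at 3 h lay above all others. The values at 6 h and 9 h overlapped each other and lay below both values at 0 h. Neither difference from 0 h passed limma's moderated test (adjusted p = 0.0924 and 0.23). Its mean was 13.84 ± 0.13 in mycelium, 14.20 ± 0.081 after 3 h, 13.57 ± 0.14 after 6 h, and 13.66 ± 0.0045 after 9 h (SD, n = 2 each).

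Calnexin is the membrane-bound lectin chaperone that holds newly made glycoproteins while they fold. Its gene had replicate values of 14.28 and 14.34 in mycelium, 14.54 and 14.68 after 3 h, 14.02 and 14.05 after 6 h, and 14.17 and 14.24 after 9 h. No time overlapped another, and the order was 3 h, 0 h, 9 h and 6 h from high to low. By limma's moderated test, 6 h and 9 h missed the threshold against 0 h (adjusted p = 0.0508 and 0.402). So did 9 h against 6 h (adjusted p = 0.255). The means were 14.31 ± 0.042 in mycelium, 14.61 ± 0.098 after 3 h, 14.03 ± 0.022 after 6 h, and 14.20 ± 0.053 after 9 h (SD, n = 2 each).

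Expression of hac1 had replicate values of 14.64 and 14.92 in mycelium, 14.77 and 14.80 after 3 h, 14.80 and 14.98 after 6 h, and 14.80 and 15.03 after 9 h. The 0 h values overlapped those of every other time, and the 9 h values lay just above those of 3 h. Its mean was 14.78 ± 0.19 in mycelium, 14.78 ± 0.022 after 3 h, 14.89 ± 0.13 after 6 h, and 14.92 ± 0.16 after 9 h (SD, n = 2 each). All 4 genes stayed below 15.93, the largest mean in the table, near which values may be compressed. Compression was not tested.

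Setting 3 h against mycelium asks what differs at the first sampled time of sporulation. Here pdi1, bip1 and calnexin rose, 3 of 4 genes, where 20.0% of all features rose by the same test (adjusted p under 0.05). The genes were chosen with earlier results of these data known, so such shares are given for description only. None reached 2-fold, which 6.77% of features did upwards. The rise of pdi1 was 1.76-fold, a log2 change of 0.82 ± 0.10 (SE), with adjusted p = 4.81e-04 by limma's moderated test (Benjamini-Hochberg over all features), as for every adjusted p of a single gene below. It lay at the 91.1st percentile of all changes, with 815 features rising more. The rises of bip1 and calnexin were smaller, 1.29-fold (log2 change 0.36 ± 0.11, adjusted p = 0.0324) and 1.23-fold (log2 change 0.30 ± 0.096, adjusted p = 0.0358), at the 79.7th and 76.4th percentiles.

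The change of hac1 at 3 h was 0.0045 on the log2 scale, with a 95% interval from -0.30 to 0.31 (adjusted p = 0.984). Over the 4 genes the median change was 0.33, against -0.05 over all features. In whole mycelium, a different share of a cell type and a different amount of RNA per cell cannot be told apart. The calls of bip1 and calnexin are marginal. In a fit of 3 h and 0 h alone their adjusted p was 0.0711 and 0.0884, and without moderation that of bip1 was 0.0638. With the lower 0 h value left out it was 0.162 and 0.134, and with the higher 3 h value left out 0.129 and 0.169. The call of bip1 was also lost without the lower 3 h value (adjusted p = 0.0545) and that of calnexin without the higher 0 h value (adjusted p = 0.0823), while pdi1 kept its call under each of these.

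**Figure D2:**
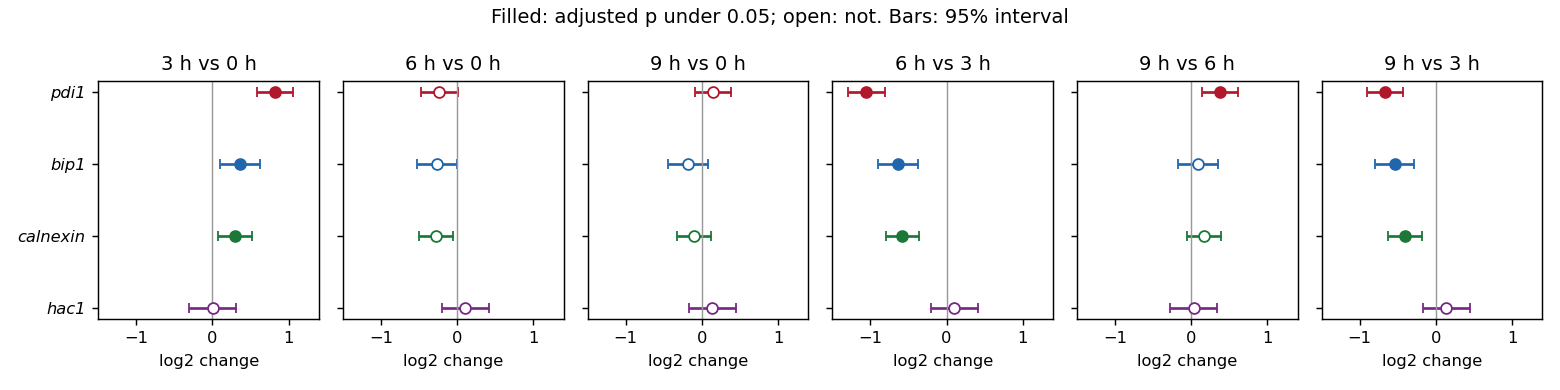
Log2 change of the 4 genes (rows) in the 6 comparisons of times (panels), with 95% intervals. Filled points passed the adjusted p and open points did not: 3 genes are filled at 3 h against 0 h, at 6 h against 3 h and at 9 h against 3 h, and hac1 is open throughout.

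The step from 3 h to 6 h asks what changes between the first and the middle time. In it pdi1, bip1 and calnexin fell, again 3 of 4 genes, where 9.51% of all features fell. The level of pdi1 was 2.07-fold lower at 6 h than at 3 h (log2 change -1.05 ± 0.10, adjusted p = 4.25e-04), and 236 of the 9126 features fell more. It was the only one of the 4 to pass 2-fold, as did 2.62% of features downwards. The gene bip1 was 1.55-fold lower (log2 change -0.63 ± 0.11, adjusted p = 0.00664) and calnexin 1.49-fold lower (log2 change -0.58 ± 0.096, adjusted p = 0.00474), with 619 and 712 features falling more.

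Against this, the log2 change of hac1 from 3 h to 6 h was 0.10, with an interval from -0.21 to 0.41 (adjusted p = 0.635). The median over the 4 genes was -0.61 and over all features 0.026. With the lower 6 h value left out the adjusted p of bip1 was 0.052. Each of the other calls in this step was kept when any single value of 3 h or 6 h was left out. The comparisons of 3 h with 0 h and of 6 h with 3 h share the 3 h arrays, so they are not independent of each other.

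**Figure D3:**
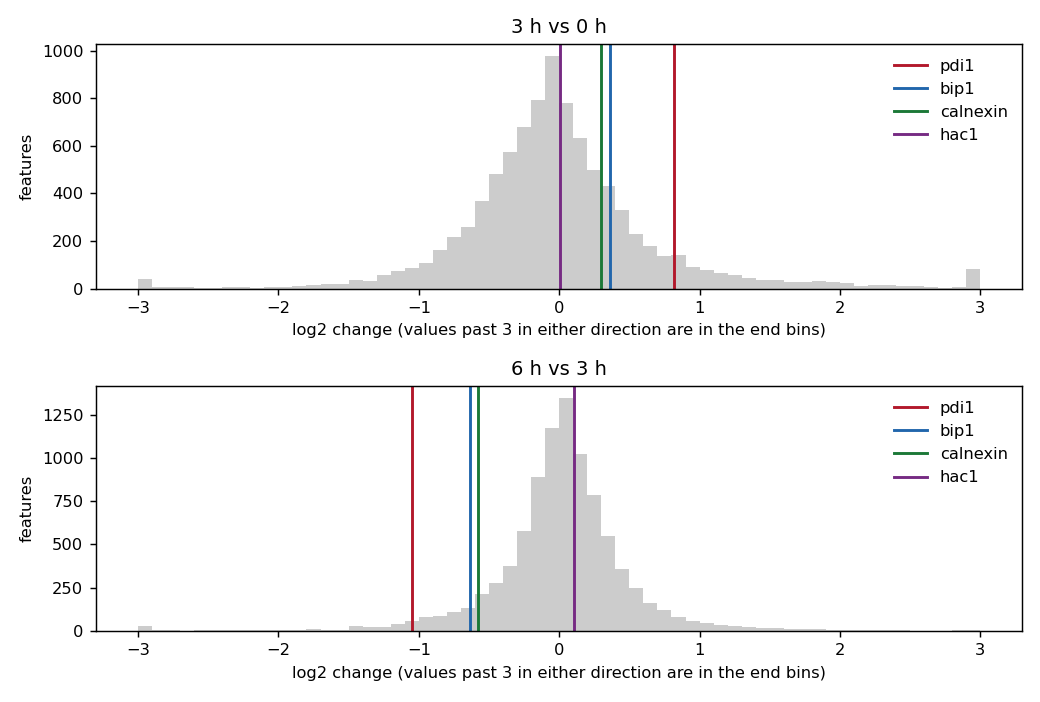
Distribution of the log2 change over all 9126 features (grey, features per bin of the horizontal axis) at 3 h against 0 h (top) and at 6 h against 3 h (bottom), with the 4 genes as lines. In the top panel pdi1 lies on the right flank (91.1st percentile) and bip1 and calnexin within the upper part of the bulk. In the bottom panel these 3 lie on the left flank, and hac1 lies near the centre in both.

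Against mycelium, the levels at 6 h did not pass the test for any of the 4 genes (39.4% of features passed in either direction). The log2 changes were -0.23 for pdi1 (adjusted p = 0.108), -0.27 for bip1 (adjusted p = 0.0924), -0.28 for calnexin (adjusted p = 0.0508) and 0.11 for hac1 (adjusted p = 0.553). At an unadjusted p under 0.05, bip1 and calnexin would be counted. The intervals reached down to -0.47, -0.53 and -0.50 for pdi1, bip1 and calnexin, so falls of that size remain possible. For calnexin the outcome depends on the setting: its adjusted p was 0.0293 with a prior variance that follows the mean level, 0.0445 without features of low level and 0.0392 without moderation.

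At 9 h none of the 4 genes differed from 0 h by the test, where 47.7% of features did. No gene of the 4 had an unadjusted p under 0.05 either. The log2 change was 0.15 for pdi1 (95% interval from -0.09 to 0.39), -0.18 for bip1 (from -0.44 to 0.08), -0.11 for calnexin (from -0.33 to 0.12) and 0.14 for hac1 (from -0.17 to 0.45).

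From 6 h to 9 h pdi1 rose 1.30-fold (log2 change 0.38 ± 0.10, adjusted p = 0.0485), 1 of 4 genes, where 5.33% of features rose. This call was lost with any single value of 6 h or 9 h left out (adjusted p from 0.0839 to 0.212) and in a fit of these 2 times alone (adjusted p = 0.0523). The changes of bip1, calnexin and hac1 were 0.09, 0.17 and 0.03 and did not pass.

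Compared directly with 3 h, the 9 h levels of pdi1, bip1 and calnexin were lower, 3 of 4 genes where 12.9% of features fell. The level of pdi1 was 1.59-fold lower (log2 change -0.67 ± 0.10, adjusted p = 0.00244), that of bip1 1.46-fold lower (log2 change -0.54 ± 0.11, adjusted p = 0.00982) and that of calnexin 1.33-fold lower (log2 change -0.41 ± 0.096, adjusted p = 0.017). The change of hac1 was 0.13 (adjusted p = 0.509). With either 9 h value left out, bip1 (adjusted p = 0.0577 and 0.0567) and calnexin (adjusted p = 0.0949 and 0.0584) missed the threshold. Calnexin also missed it with the higher 3 h value left out (adjusted p = 0.0876).

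The course of the 4 genes was set beside that of cel7a, which encodes the major secreted cellobiohydrolase of this fungus and is given for reference. Expression of cel7a was 11.46 ± 0.17 in mycelium, 15.50 ± 0.072 after 3 h, 14.20 ± 0.13 after 6 h, and 15.07 ± 0.10 after 9 h (SD, n = 2 each). Like pdi1, bip1 and calnexin it was highest at 3 h, and its change from 3 h to 6 h was -1.30 log2 units, against -1.05, -0.63 and -0.58 for those genes and 0.10 for hac1. It differed from them relative to mycelium. Its level was still 6.69-fold above 0 h at 6 h and 12.3-fold at 9 h, where the folding genes were within the changes given above. At 3 h cel7a was 16.5-fold above 0 h, while pdi1 was 1.76-fold above. The means of cel7a at 3 h and 9 h lay nearer to 15.93, the largest mean in the table, than those of the 4 genes. Its changes that involve these times may be compressed, which was not tested. Whether the course of any folding gene differs from that of cel7a was not tested, since means and SDs do not show how 2 genes vary together on one array.

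**Figure D4:**
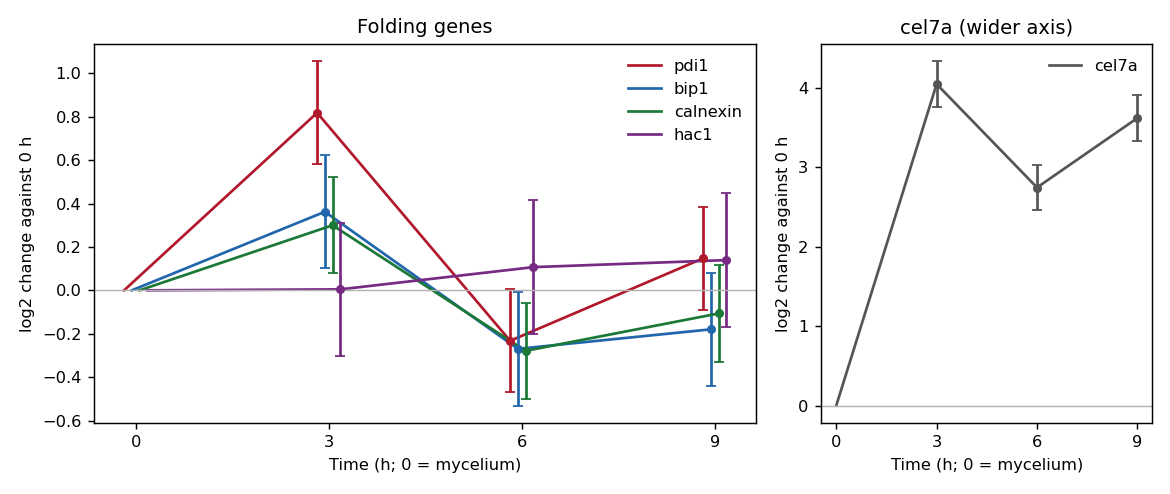
Log2 change against 0 h (vertical axis, with 95% intervals) over time in hours for the 4 folding genes (left) and cel7a (right, on a wider axis). The points of the folding genes lie within 1 log2 unit of mycelium at all times, and cel7a stays above 2.5.

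In the order of their 4 means, bip1 and calnexin were alike (6 h, 9 h, 0 h, 3 h from low to high), an order found in 222 features or 2.43%. The order of pdi1, with 9 h above 0 h, was found in 159 features or 1.74%. A highest mean at 3 h together with a lowest mean at 6 h was found in 381 features, 4.17% of all. The likeness of courses was measured as the root mean square difference of the 4 mean log2 levels after centring each gene on its own mean. By this measure bip1 and calnexin differed by 0.048, and 9 features of the table were nearer to bip1 than calnexin was. The distance from pdi1 to bip1 was 0.19 and to calnexin 0.20. Many features lay between: 672 were nearer to bip1, and 1357 nearer to calnexin, than pdi1 was. Seen from pdi1, 72 features were nearer than bip1 and 93 nearer than calnexin. The distance from hac1 was 0.42 to pdi1, 0.29 to bip1 and 0.26 to calnexin.

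Of the 233 other features with a symbol, the nearest to bip1 were axe2, an acetyl xylan esterase gene, at a difference of 0.054, chi18-13, of chitinase family 18, at 0.089, and nag1, a N-acetylglucosaminidase gene, at 0.09. Nearest to calnexin were axe2 at 0.061, chi18-13 at 0.091 and ste12 at 0.091. The nearest to pdi1 were chi18-6 at 0.15, the beta-glucosidase gene cel1b at 0.17 and creb at 0.19. The means of chi18-6 were low, from 7.53 to 8.25, below the level of 9.63 used to filter out low features. Around hac1 lay kc2a at 0.033, gem1 at 0.041 and gsk3 at 0.043. These distances rest on 4 means each, and small distances are common among genes that change little.

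Of the other genes of the unfolded protein response, 2 had a symbol in the gene table, ire1 and ptc2. The sensor gene ire1 had replicate values of 12.98 and 13.14 in mycelium, 13.31 and 13.32 after 3 h, 13.42 and 13.58 after 6 h, and 13.37 and 13.50 after 9 h, so all its later values lay above those of 0 h. Its log2 change against 0 h was 0.26 ± 0.11 at 3 h (adjusted p = 0.0919), and it rose by 0.44 ± 0.11 at 6 h (adjusted p = 0.0138) and by 0.38 ± 0.11 at 9 h (adjusted p = 0.0214). From 3 h to 6 h its log2 change was 0.19 and did not pass (adjusted p = 0.263). With the lower 0 h value left out the adjusted p of ire1 was 0.075 at 6 h and 0.113 at 9 h, and with the higher value of the later time left out 0.0828 and 0.116. In yeast the phosphatase Ptc2 acts on Ire1 and damps the response. The level of ptc2 was 14.22 ± 0.16 in mycelium, 14.22 ± 0.052 after 3 h, 14.21 ± 0.11 after 6 h, and 14.27 ± 0.12 after 9 h, and no comparison passed.

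A list of secretory traffic and mannosylation symbols held 11 genes, from vesicle formation at the endoplasmic reticulum to fusion at the plasma membrane, with the small GTPase genes rho1 and rho3 also on it. At 3 h, 1 of the 11 rose and 2 fell, where 20.0% of features rose and 23.9% fell, and the list's median change was -0.11 against -0.05 over all features. The rise was that of snc1, the SNARE of secretory vesicles (0.29, adjusted p = 0.0437). The falls were those of sar1, the GTPase that builds the vesicle coat at the endoplasmic reticulum (-0.46, adjusted p = 0.0334), and of mpg1, which makes the mannose donor GDP-mannose (-0.36, adjusted p = 0.0227). The SNARE gene sso1 just missed the threshold (0.28, adjusted p = 0.0501). With median centring, a trended prior or a filter on low levels it passed, and 4 of the 11 were called. The fit of 3 h and 0 h alone called 0 of the 11, and with 1 value of 3 h or 0 h left out between 0 and 2 were called.

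At 6 h 2 of the 11 were higher than in mycelium (20.0% of features) and 2 lower (19.4%), and at 9 h again 2 (22.7%) and 2 (25.1%), with none past 2-fold. The genes called were taken after their values were seen. They were snc1 (0.52) and rho1, a GTPase of cell wall synthesis (0.28), up at 6 h, and mpg1 (-0.63) and the protein O-mannosyltransferase gene pmt1 (-0.41), down. The mean of rho1 at 6 h (15.56) lay near 15.93, the largest mean in the table, and its change may be compressed. At 9 h sso1, a plasma membrane SNARE (0.39), and snc1 (0.30) were up, and sar1 (-0.56) and mpg1 (-0.50) down. Of these 8 calls, 5 were lost in at least 1 alternative. At 6 h rho1 missed the threshold with any single value left out (adjusted p from 0.0789 to 0.17) and after quantile normalization (adjusted p = 0.0957), and pmt1 with the lower 6 h value or either 0 h value left out (adjusted p from 0.0722 to 0.15). At 9 h snc1 missed it with any single value left out (adjusted p from 0.0873 to 0.145). The same holds for sar1 with the lower 9 h value or the higher 0 h value left out (adjusted p = 0.0949 and 0.075), and for sso1 with the higher 9 h value or the lower 0 h value left out (adjusted p = 0.0712 and 0.0784). The calls of mpg1 at 6 h and 9 h and of snc1 at 6 h were kept in every alternative run. From 3 h to 6 h, where pdi1, bip1 and calnexin fell, 1 of the 11 fell, pmt1 (-0.42, adjusted p = 0.0368), where 9.51% of features fell, and 0 rose, where 12.2% rose. That call was lost with any single value of 3 h or 6 h left out. By limma's test 0 of the 11 were called between 6 h and 9 h (13.3% of features) and 0 between 3 h and 9 h (26.7%), with 3 and 0 at an unadjusted p under 0.05.

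**Figure D5:**
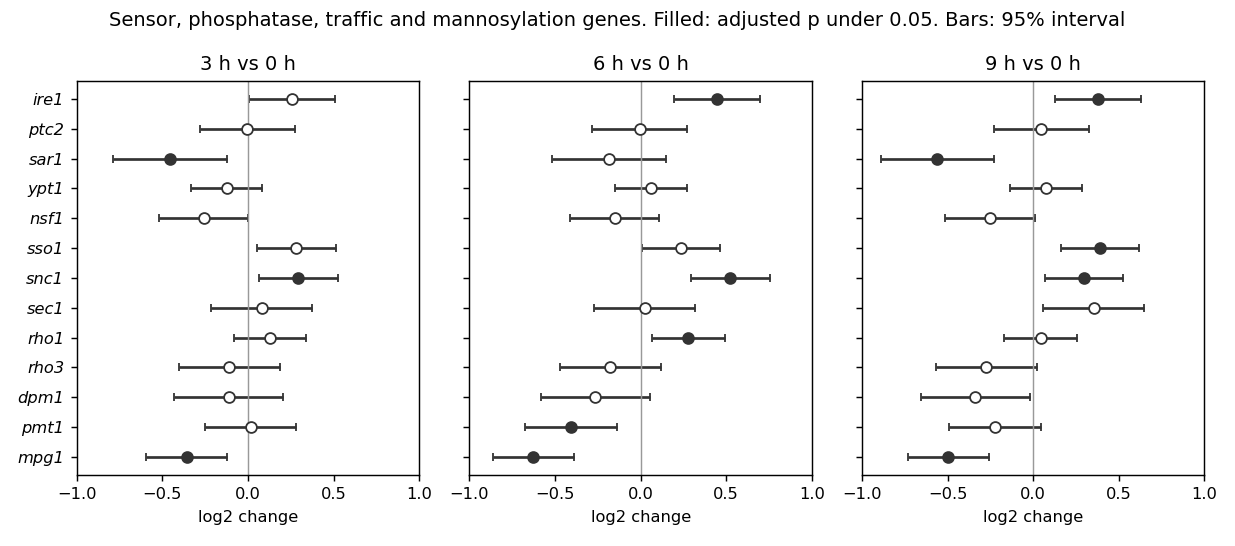
Log2 change against 0 h (horizontal axis, 95% intervals) of ire1, ptc2 and the 11 genes of the traffic and mannosylation list (rows) at 3, 6 and 9 h (panels). Filled points passed the adjusted p: ire1 is filled at 6 h and 9 h. At all 3 times mpg1 is filled and below 0, and snc1 is filled and above 0.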

How the data were processed

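Per the labels' protocols and the submitters' processing notes, Cy3-labelled total RNA was hybridised by NimbleGen and processed by the authors with RMA, which quantile normalizes arrays. The version and the genome build are not given in the sources used here. Per the file headers, the authors deposited log2 means with SDs at the 4 times and 1 p-value per feature. A one-way analysis of variance for 2 replicas, with Benjamini-Hochberg adjustment over all 9126 features, gave the deposited p-value within 1% for 9015 features (98.78%), so the SD was taken as that of 2 replicas. Of 9122 TRIRE2 identifiers, 9094 were in the RefSeq table and 235 features had a symbol.

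From means and SDs, limma's (3.58.1, R 4.3.3) moderated test was computed with all 4 times in 1 fit, 4 residual degrees of freedom and a prior of 3.82, over all features. A feature was called at adjusted p under 0.05, with 2-fold changes counted beside it. In simulated arrays of 9126 features for 3 h against 0 h, 82 of 100 features changed by 1 log2 unit were called, 29 of 100 changed by 0.5 and 6 unchanged ones. Only these features were changed, with independent noise, whereas in the data 20.0% of features rose and 23.9% fell at 3 h. The adjusted p depends on that share, so the simulated counts do not give the recovery in the data. Alternatives were quantile normalization of the means, median centring, a trended prior, 2 times only, a filter on low levels, no moderation and leaving out either replicate value. The genes and lists were chosen with earlier results of these data known. The rule for naming took the 4 genes, cel7a and lxr1, the 3 nearest courses with a symbol, and the 3 largest called rises and falls of each list at 3 h. Outside it, hfb2 and hfb3 were named as markers, ire1 and ptc2 as the whole of their list, and rho1, rho3, pmt1 and sso1 after their values were seen. Lists that need protein or promoter sequence were not analysed here. The labels do not number the replicas. Precision is limited by 2 arrays per time.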

Additional observations from a re-analysis of the deposited data

How the results depend on the processing

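The count of called genes among pdi1, bip1, calnexin and hac1 was 3 at 3 h against 0 h, and it was 1 with only these times in the fit, 2 without moderation (bip1 lost), 0 with the 2-fold threshold added, and 1 to 2 with a single value left out. At 6 h against 0 h it was 0, and 1 with a trended prior, without low levels and without moderation, in each case calnexin, and 0 with any value left out. At 9 h against 0 h it was 0 with any value left out. From 3 h to 6 h it was 3, 1 with the 2-fold threshold, and 2 to 3 with a value left out. From 6 h to 9 h it was 1, and 0 with only these times, without moderation, with the 2-fold threshold and with any value left out. From 3 h to 9 h it was 3, 0 with the 2-fold threshold, and 1 to 3 with a value left out. At any time it was 3, and 0 with the 2-fold threshold. Quantile normalization of the means and median centring kept each of these counts within a factor of 1.5. The values had already been quantile normalized by RMA, and the medians of the times lay between 11.53 and 11.56. The kept counts therefore say little about other ways of normalizing. Leaving out a value takes away the lower, or the higher, value of every feature at that time. It is therefore not the loss of 1 array, and the means of all features at that time move the same way. Fewer calls are in part a matter of fewer values. Leaving out a value also leaves 1 value at that time, which is assumed to vary like the other times. It was done by feature since arrays cannot be told apart.

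Signs turned only for changes that had not passed, in the alternatives run. With a value left out, the change of hac1 was from -0.13 to 0.14 at 3 h (-0.011 with the higher 3 h value left out), from -0.031 to 0.24 at 6 h, and from -0.082 to 0.15 between 6 h and 9 h (-0.058 with the lower 6 h value left out). That of bip1 between 6 h and 9 h was from -0.0063 to 0.19. Among the pathway genes, whose alternatives were added after seeing the data, ptc2 was at 0.0015 after quantile normalization and 0.029 after median centring at 3 h, and at 0.0021 after median centring at 6 h. With a value left out it ranged from -0.12 to 0.11 at 3 h (0.033 among them), from -0.12 to 0.11 at 6 h (0.075 among them) and from -0.069 to 0.16 at 9 h (-0.035 among them), and pmt1 from -0.0043 to 0.035 at 3 h (-0.0012 among them), and rho1 from -0.0026 to 0.0902 at 9 h. The count among the 11 genes of the traffic and mannosylation list was 3 at 3 h, 4 at 6 h and 4 at 9 h, and with a value left out 0 to 2, 2 to 3 and 2 to 3. Median centring, a trended prior and the filter on low levels each called 4 of these 11 at 3 h, and 5, 5 and 6 at 9 h. Fits of only the 2 times compared called 0 at 3 h and 3 at 9 h. No paired analysis was possible because the columns hold means of unnumbered replicas. The list of proteins with an endoplasmic reticulum retention tail was not run, since protein sequences were not used here.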
